A study of Homo sapiens with 14 samples.

Results

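Human embryonic stem cells that had been induced for 5 days with a low dose of CHIR99021 plus TGF-beta 1 were compared with uninduced cells of the same line. The comparison used 4 of the 14 RNA-seq libraries of the series, chosen by their labels: 2 of the induced culture, called low Wnt + TGFB below, and 2 of uninduced cells, called hESC. Every library came from WA01 (H1), an established human embryonic stem cell line, so the results describe a single genetic background. Cells of the low Wnt + TGFB group received 3 µM CHIR99021, which blocks GSK3 and so stabilises beta-catenin, from hour 0 to hour 72. They also received TGF-beta 1 at 5 ng/µL, the unit the labels give, from hour 0 to hour 120. Induction took place on Matrigel, in DMEM/F12 supplemented with B27 and albumin. A further 2 libraries of cells given the same CHIR99021 without TGF-beta 1, called low Wnt, served as the nearest induced reference. The other 8 libraries were low Wnt with SB431542, which blocks the activin, nodal and TGF-beta type I receptors, and cultures in 10 µM CHIR99021 alone, with SB431542 or with TGF-beta 1. They entered the estimate of the spread between libraries and are cited only where a level elsewhere helps to place a gene or the culture.

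The labels give the uninduced cells no medium or time of their own, so CHIR99021, TGF-beta 1, medium and time in culture cannot be told apart in the comparison with hESC. Whether the replicates were separate cultures is not stated in the labels, and the p-values therefore measure no more than how far these libraries spread, possibly for technical reasons. In bulk RNA, fewer cells of a type and less RNA per cell cannot be told apart.

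Human pluripotent cells in culture keep their identity through a set of transcription factors centred on POU5F1 (OCT4), SOX2 and NANOG. Ligands of the TGF-beta superfamily, chiefly activin, nodal and TGF-beta itself, feed that set: they bind type I and type II receptor kinases, which phosphorylate SMAD2 and SMAD3, and these enter the nucleus with SMAD4 and partners such as FOXH1. The same pathway, together with Wnt, directs primitive streak and endoderm formation in the embryo, while its absence favours neural fates. The question put to the data was what distinguishes cells given TGF-beta 1 with low CHIR99021 from cells that were never induced.

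Library totals ran from 10879287 to 19106827 read pairs counted in genes over the 14 libraries. The hESC libraries held 14174120 and 12930505, and the low Wnt + TGFB libraries held 13452564 and 16167956. A level below is in counts per 1e6 read pairs (CPM) after scaling of the library totals with the TMM method, and a difference is a log2 fold change of low Wnt + TGFB over hESC, with its standard error. A gene was called when edgeR's quasi-likelihood test gave it a Benjamini-Hochberg adjusted p under 0.05 over the 16149 genes tested. With 3 counts as the limit that a count of 0 allows, a gene at 0 could still lie at 0.157 to 0.276 CPM, depending on the library, and this covers counting error only. Among the tested members of the gene lists and the named genes, leaving out 1 library moved the fitted fold of 64 by over 1.5 times. Of these 56 had under 1 CPM in hESC or low Wnt + TGFB. Most such genes that are named below are therefore given by their levels, by a bound or by a ratio with its counting interval.

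Of the 16149 genes, 10199 (63.2%) were called, 5071 (31.4%) higher and 5128 (31.8%) lower than in hESC. At least a 2-fold difference was called for 4765 genes (29.5%), 2553 of them higher and 2212 lower. Scaling by library totals alone moved the median log2 difference of all genes from 0.016 to 0.19 and gave 6162 higher and 4094 lower calls, so small differences depend on the scaling. Against low Wnt, 4196 genes (26%) were called, 2220 (13.7%) higher and 1976 (12.2%) lower in low Wnt + TGFB, and library totals gave 2787 and 1387. That count fell to 2724 without low Wnt replicate 1 and to 2342 without low Wnt + TGFB replicate 2. Both comparisons use the same 2 low Wnt + TGFB libraries, so their values stand side by side below and are not independent of each other. The shares of all tested genes called higher and lower in each comparison are the background for every list count below.

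By its transcriptome the culture correlated more closely with low Wnt than with hESC. Over the log2 CPM of the tested genes, the low Wnt + TGFB libraries correlated with hESC at a mean of 0.902 (range 0.888 to 0.914 over 4 library pairs) and with low Wnt at 0.96 (0.954 to 0.964). The mean was 0.934 with low Wnt plus SB431542, and 0.907, 0.909 and 0.901 with 10 µM CHIR99021 alone, with SB431542 and with TGF-beta 1, values inside the hESC range. Replicates correlated at 0.988 in both groups, and these values describe genes of shared libraries and carry no test. Of 8 stem cell markers, 6 were lower than in hESC and none was higher. Their summed level was 6128 and 6402 CPM in hESC, 3008 and 3392 in low Wnt + TGFB, and 1886 and 2005 in low Wnt (libraries 1 and 2 of each group, here and below). The culture is therefore called by its treatment here and not by a cell type.

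Markers of other cell types were counted in the same way. All 6 endoderm markers were higher than in hESC, with sums of 2.29 and 4.16 CPM in hESC and 68.9 and 129.7 in low Wnt + TGFB. Of 6 neural crest markers 5 were higher, with sums of 6.14 and 7.89 against 57.4 and 60.2. Among 6 neural progenitor markers 2 were higher and 1 lower (sums 75.5 and 96.2 against 94 and 89.8), among 6 neuron markers 3 and 1 (374 and 538 against 301 and 265), and among 5 tested of 6 mesoderm markers 2 and 0 (7.99 and 8.23 against 11.02 and 16.9). Of the amnion and trophoblast markers 1 was higher and 2 lower of 4 tested (14.3 and 19.2 against 12.2 and 22), with CGA at 0. Of 4 surface ectoderm markers only GRHL3 was tested, and it was higher (sums 1.70 and 2.71 against 5.48 and 5.56). KRT5, KRT14 and TP63 were at 0 in low Wnt + TGFB, and 3 of the 4 markers were at 0 in hESC too. All 3 tested of 6 endothelium and blood markers were higher, with GATA1 at 0 in low Wnt + TGFB. Their sum (96.8 and 85.5 against 158 and 141) was mostly TEK, and the sum in low Wnt was 167 and 174. PECAM1 rested on 13 counts against 0 in hESC and TAL1 on 34 against 3. The adjusted p of TAL1 was 0.0567 with DESeq2. Among 5 tested of 6 smooth muscle markers 2 were higher and 2 lower (386 and 568 against 264 and 297). Of all tested genes 31.4% were called higher and 31.8% lower. The part that these cell types have in the differences below was not tested.

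Most transcription factors of the pluripotent state were lower in low Wnt + TGFB than in hESC, and most of them were above their levels in low Wnt. Of 14 such factors 9 fell, 2 rose and 3 were not called, with a median log2 difference of -1.15 beside 0.016 for all genes. Of 24 genes enriched in stem cells 20 fell and 1 rose (median -1.98). Against low Wnt, 11 of the 14 factors were higher and 1 lower, and 17 of the 24 stem cell genes were higher and none lower. Low Wnt + TGFB replicate 2 was above replicate 1 for 20 of the 24 stem cell genes, beside 48.4% of all tested genes.

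POU5F1 (chr6:31164337-31170693, minus strand) encodes OCT4, without which pluripotent cells are not maintained. Its level was 164 and 231 CPM in hESC, 44.9 and 38.9 in low Wnt + TGFB and 1.95 and 4.36 in low Wnt. The 3 groups did not overlap, and the induced cells lay between the references, at a log2 difference of -2.24 ± 0.22 from hESC (adjusted p = 2.8e-07) and 3.72 ± 0.28 from low Wnt (adjusted p = 5.3e-08). POU5F1 is listed on 7 sequences of the build and has near-identical copies elsewhere, so its absolute level is uncertain. NANOG (chr12:7789396-7796061, plus strand), a homeodomain factor that depends on activin and nodal signalling, measured 80.6 and 93.5 CPM in hESC, 15.4 and 18.8 in low Wnt + TGFB and 0.731 and 1.67 in low Wnt. The groups stood in the same order, with log2 differences of -2.34 ± 0.21 (adjusted p = 1.2e-07) and 3.82 ± 0.28 (adjusted p = 7.5e-08).

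SOX2, the third factor of the core and one that neural progenitors keep, behaved differently. It measured 376 and 383 CPM in hESC and 375 and 384 in low Wnt + TGFB, so the groups overlapped, and it was not called (log2 0.00076 ± 0.12, adjusted p = 0.997). The zinc finger factor ZSCAN10 fell from 338 and 421 to 54.3 and 80.7 CPM (log2 -2.49 ± 0.17, adjusted p = 4.1e-09). ZFP42, known as REX1 and widely used as a stem cell marker, fell from 309 and 292 to 105 and 132 CPM. Its log2 difference was -1.34 ± 0.14 (adjusted p = 5.5e-07), and both libraries stayed above the 30.02 and 44.1 CPM of low Wnt. NR5A2, a nuclear receptor that acts on the POU5F1 gene, had the largest fall of the 14 factors, from 25.4 and 22.2 to 1.14 and 1.58 CPM (log2 -4.11 ± 0.23, adjusted p = 2.9e-10). TEAD4, a partner of YAP, fell from 107 and 131 to 35.5 and 32.3 CPM, and the forkhead factor FOXD3 from 32 and 41 to 7.61 and 9.48.

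PRDM14, a factor that supports human pluripotency and restrains DNA methylation, measured 93.3 and 102 CPM in hESC, 66.1 and 66.7 in low Wnt + TGFB and 7.67 and 15.2 in low Wnt. On the log2 scale it lay closer to hESC than to low Wnt. Its log2 difference from hESC was -0.56 ± 0.19 (adjusted p = 0.0188), but the adjusted p was 0.0995 with library totals alone, 0.105 without hESC replicate 2, 0.092 without low Wnt + TGFB replicate 1 and 0.0744 without low Wnt + TGFB replicate 2. OTX2 (chr14:56800707-56810476, minus strand), a homeodomain factor of the primed epiblast and later of forebrain and midbrain, went the other way. It measured 33.1 and 37.7 CPM in hESC, 168 and 169.8 in low Wnt + TGFB and 16.5 and 20.5 in low Wnt. Both low Wnt + TGFB libraries were above every hESC and low Wnt library, by a log2 of 2.25 ± 0.16 over hESC (adjusted p = 8.3e-09) and 3.19 ± 0.17 over low Wnt (adjusted p = 2.0e-09). In the other 8 libraries OTX2 ranged from 0.184 to 0.67 CPM.

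**Figure D1:**
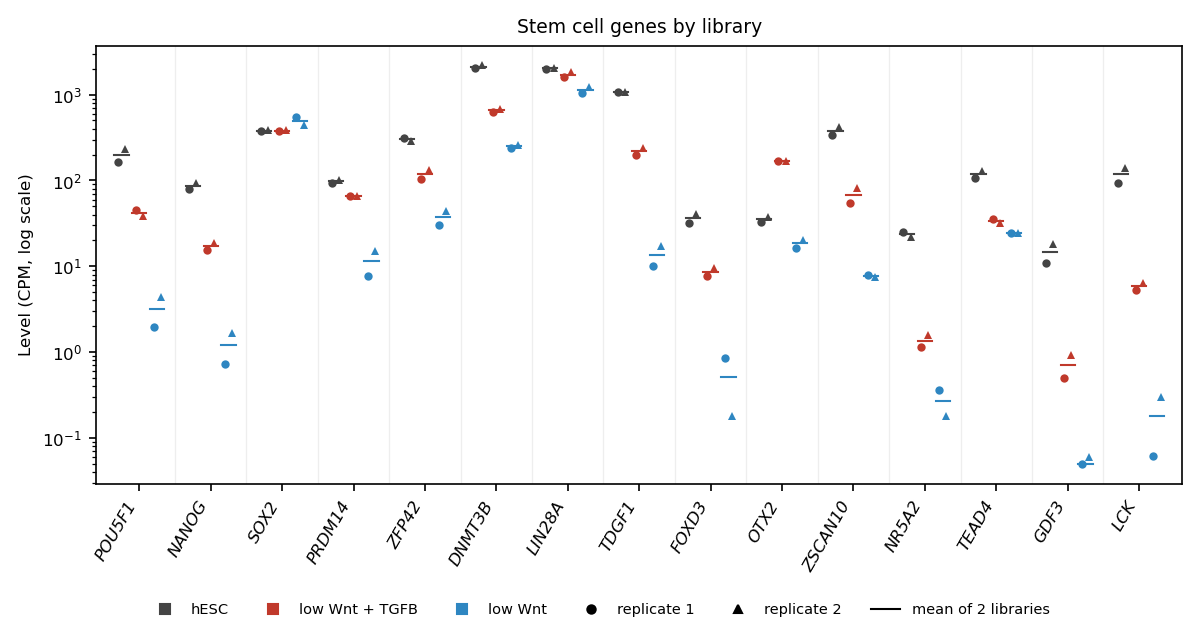
Levels of 15 stem cell genes in TMM-scaled CPM on a log axis, for hESC (grey), low Wnt + TGFB (red) and low Wnt (blue); circles are replicate 1, triangles replicate 2 and bars the mean of 2 libraries. Red points lie between grey and blue for most genes, level with grey for SOX2 and above both for OTX2.

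Among the other stem cell genes, DNMT3B, the de novo DNA methyltransferase of early embryonic cells, fell from 2025 and 2188 to 622 and 684 CPM and stood at 241 and 259.7 in low Wnt. The log2 difference from hESC was -1.69 ± 0.091 (adjusted p = 2.4e-10). LIN28A, which binds let-7 precursors, was not called: it measured 1996 and 2042 CPM in hESC and 1583 and 1826 in low Wnt + TGFB (adjusted p = 0.104). The kinase LCK fell from 93.9 and 141 to 5.33 and 6.32 CPM, and low Wnt held 0.0609 and 0.299. The neuropeptide GAL fell from 129 and 166 to 5.83 and 9.66 CPM, the tetraspanin CD9 from 172 and 188 to 30.6 and 31.5, and TERF1, a telomere-binding protein, from 972 and 855 to 224 and 232. The groups did not overlap in any of these 5 called genes, and their log2 differences ran from -4.32 (LCK) to -1.69 (DNMT3B).

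Most measurable noncoding RNAs of pluripotent cells fell. Of 12 listed, 7 could be tested and 6 of these were lower than in hESC, with a median log2 of -2.86. ESRG, a transcript driven by an endogenous retrovirus of the HERV-H family, fell from 1678 and 1461 to 434 and 402 CPM and stood at 78.8 and 89.7 in low Wnt (log2 -1.91 ± 0.11, adjusted p = 3.3e-10). LINC00678 fell from 205 and 190.4 to 26.8 and 27.6 CPM and LINC00458 from 59.5 and 48.5 to 2.63 and 3.28. LINC-ROR measured 9.32 and 7.72 CPM in hESC and 0 and 0.0585 in low Wnt + TGFB, where 1 count was found in the pair of libraries (adjusted p = 1.2e-06).

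Genes of the naive state, an earlier form of pluripotency, were mostly too low to test: 8 of 17 passed the filter on low counts, of which 2 rose and 2 fell. TFCP2L1 fell from 7.1 and 7.21 to 1.71 and 3.39 CPM (log2 -1.47 ± 0.399, adjusted p = 0.0042, but 0.0688 without low Wnt + TGFB replicate 1). SUSD2 fell from 4.07 and 4.5 to 1.99 and 2.11 CPM (adjusted p = 0.0072, but 0.0515 with DESeq2, 0.0523 without hESC replicate 2 and 0.0531 without low Wnt + TGFB replicate 1). KLF5 rose from 2.74 and 1.7 to 4.91 and 6.79 CPM (log2 1.39 ± 0.29, adjusted p = 0.0005). TBX3, which also acts in early endoderm, measured 2.15 and 1.44 CPM in hESC, 9.95 and 17.8 in low Wnt + TGFB and 0.0609 and 0.299 in low Wnt. Its log2 was 2.94 ± 0.39 over hESC (adjusted p = 1.0e-05) and 6.2 ± 0.53 over low Wnt (adjusted p = 3.6e-07), with replicate 2 of low Wnt + TGFB above replicate 1.

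Promoter sequences of 3 genes are shown because FOXH1, the partner that brings SMAD2 and SMAD3 to DNA, is known to bind forms of the letters TGTNNATT, and these 3 promoters hold them. The windows run from 250 bases before to 50 bases after the RefSeq start of each gene in GRCh38.p14, written along the gene's own strand, with matches on either strand in capitals. NANOG lies at chr12:7789152-7789451 on the plus strand, CER1, a secreted nodal antagonist, at chr9:14722684-14722983 on the minus strand, and OTX2 at chr14:56810430-56810729 on the minus strand (the first of its 2 listed starts).
NANOG: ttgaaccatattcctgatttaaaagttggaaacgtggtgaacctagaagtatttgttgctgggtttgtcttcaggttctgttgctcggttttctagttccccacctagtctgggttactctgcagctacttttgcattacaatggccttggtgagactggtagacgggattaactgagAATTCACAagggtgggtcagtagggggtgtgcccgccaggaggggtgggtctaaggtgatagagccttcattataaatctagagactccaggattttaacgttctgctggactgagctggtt
CER1: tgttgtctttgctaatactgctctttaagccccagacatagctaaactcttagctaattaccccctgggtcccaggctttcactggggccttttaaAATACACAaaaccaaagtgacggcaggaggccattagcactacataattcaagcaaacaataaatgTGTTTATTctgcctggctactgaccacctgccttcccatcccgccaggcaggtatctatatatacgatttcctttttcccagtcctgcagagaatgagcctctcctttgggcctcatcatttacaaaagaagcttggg
OTX2: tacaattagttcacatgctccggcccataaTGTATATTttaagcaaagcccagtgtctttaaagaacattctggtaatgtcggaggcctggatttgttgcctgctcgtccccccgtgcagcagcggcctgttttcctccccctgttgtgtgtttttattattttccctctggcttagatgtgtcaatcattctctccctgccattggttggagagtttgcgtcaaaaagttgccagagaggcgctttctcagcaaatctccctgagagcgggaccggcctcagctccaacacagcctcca
The NANOG and OTX2 windows hold 1 match each and the CER1 window 2. Of 35116 promoters of this length, 11% hold the letters. The share was 3 of 9 among the pluripotency factors with a promoter entry, 3 of 18 among the stem cell genes, 3 of 14 in the nodal pathway and 4 of 8 among the endoderm genes. Of the 3 genes printed, NANOG fell against hESC, OTX2 rose and CER1 was not called, while all 3 were higher than in low Wnt. The SMAD palindrome GTCTAGAC stood in 0.202% of promoters and in none of these lists, the octamer ATGCAAAT in 1.77%, and the TCF/LEF letters ATCAAAG in 2.62%. A match describes these letters in this window and is not a measured binding site.

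The 12 genes with the largest rises, among those with at least 10 CPM and no overlap, were nearly silent in hESC. MMRN1 (chr4:89894901-89954629), a multimerin of platelets and endothelium, was at 0 in both hESC libraries and at 55.3 and 48.5 CPM in low Wnt + TGFB, which is at least 437-fold higher when hESC is set at 3 counts over the group. The secreted Wnt antagonist SFRP4 (chr7:37905933-37916923) had 1 count in hESC and 146 and 154 CPM in low Wnt + TGFB, a level 3805 times higher (exact counting interval 684 to 150713, 95%). That count lay in hESC replicate 1, and the fitted log2 of 11.62 became 14.18 without this library and 10.86 without hESC replicate 2. LGI1 (chr10:93757809-93798174), a secreted neuronal protein, was at 0 in hESC and at 25 and 25.1 CPM in low Wnt + TGFB, at least 211-fold higher. Low Wnt cells also expressed MMRN1, at 54 and 59.1 CPM, and held less SFRP4 (59.7 and 72.3) and LGI1 (2.86 and 3.41). LGI1 was thus higher with TGF-beta 1 than without it, by a log2 of 2.99 ± 0.25 (adjusted p = 4.9e-07), and ranged from 0 to 5.03 CPM in the other 8 libraries.

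Several of the 12 pattern the hindbrain or the neural tube. NR2F2 (COUP-TFII, chr15:96325928-96340263), a nuclear receptor, had 1 count in hESC and 116 and 101 CPM in low Wnt + TGFB, a level 2746 times higher (exact counting interval 489 to 107780.4, 95%). HOXA2 (chr7:27100354-27102775), the most anterior HOX gene of the hindbrain, was at 0 in hESC and at 12.4 and 8.78 CPM, at least 89.5-fold higher. WNT1 (chr12:48978453-48982613), a ligand of the midbrain-hindbrain boundary and dorsal neural tube, reached 22.3 and 30.1 CPM from 1 count, a level 662 times higher (exact counting interval 120.2 to 26568, 95%). LMX1A (chr1:165201867-165356715), a LIM homeodomain factor of the roof plate, reached 13.2 and 12.4 CPM and was 323 times higher (exact counting interval 57.4 to 12738, 95%). NTRK2, the receptor for BDNF, rose from 0.296 and 0.17 to 175 and 130.5 CPM. GREB1L, which is needed for kidney development, was at 236 and 190.1 CPM and 1796 times higher (exact counting interval 608 to 8621, 95%). These ratios rest on 1 to 3 counts in hESC and on which library holds them. The fitted log2 without hESC replicate 1 and without hESC replicate 2 was 13.71 and 10.39 for NR2F2 and 10.62 and 7.30 for LMX1A. For WNT1 it was 8.16 and 11.67 in the same order, and for GREB1L it went from 10.71 to 11.36 without hESC replicate 2. CYP26C1, which breaks down retinoic acid, ZEB2, a repressor of CDH1, and SOX17, an endoderm factor, complete the 12 and are described with their groups.

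The 12 largest falls included genes of signalling and of neurons that hESC transcribe. HHLA1, a gene joined to a HERV-H element, fell from 24 and 21.1 to 0.142 and 0.117 CPM. D21S2088E fell from 35.9 and 30.9 to 0.213 and 0.41 CPM. TIMP4 (chr3:12153068-12159351), an inhibitor of matrix metalloproteinases, fell from 9.47 and 12.6 to 0.0711 and 0.41 CPM. These 3 genes were near the limit of detection after induction, so their fitted folds carry little precision. The LIM-only factor LMO3 fell from 18.1 and 14.6 to 0.64 and 0.585 CPM. The Ras exchange factor RASGRF2 (chr5:80960689-81230162) fell from 60.5 and 53.1 to 1.49 and 3.04 CPM, with a log2 of -4.61 ± 0.32 and -5.21 without low Wnt + TGFB replicate 2. ZDHHC22, a palmitoyltransferase, fell from 118 and 126 to 4.98 and 6.03 CPM (log2 -4.46 ± 0.15, adjusted p = 8.9e-13), and VSNL1, a neuronal calcium sensor, fell from 163 and 143 to 6.76 and 7.43. The adenylyl cyclase ADCY8 fell from 22.8 and 21.1 to 1.56 and 0.702 CPM (log2 -4.3 ± 0.31 and -4.91 without low Wnt + TGFB replicate 1), and GLB1L3 from 35.7 and 36.8 to 1.56 and 2.22. LCK and the ligand GDF3 were also among the 12.

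The nodal pathway did not move as a block. Of 17 tested members 7 rose, 7 fell and 3 were not called (median log2 0.082), beside 31.4% higher and 31.8% lower of all tested genes. Against low Wnt 8 members were higher and 3 lower, beside 13.7% and 12.2% of all tested genes. NODAL itself (chr10:70431936-70441709, minus strand), the ligand that patterns the streak, measured 12.5 and 15.9 CPM in hESC, 6.47 and 7.67 in low Wnt + TGFB and 0 and 0.179 in low Wnt. Its groups did not overlap, at a log2 of -1.0 ± 0.27 against hESC (adjusted p = 0.0046); the adjusted p was 0.0643 without hESC replicate 2 and 0.0524 without low Wnt + TGFB replicate 1. Against low Wnt the log2 was 6.17 ± 0.49 (adjusted p = 1.7e-07), with 3 counts in the pair of low Wnt libraries, a level 78.1 times higher (exact counting interval 26.6 to 385, 95%). The co-receptor TDGF1, known as Cripto, fell from 1084 and 1071 to 196 and 241 CPM and was at 10.05 and 17.4 in low Wnt. Its log2 differences were -2.3 ± 0.16 (adjusted p = 4.9e-09) and 3.99 ± 0.18 (adjusted p = 4.8e-10). GDF3, a nodal-related ligand, fell from 11 and 18 to 0.498 and 0.937 CPM (log2 -4.29 ± 0.43, adjusted p = 2.5e-06). INHBA, the activin A subunit, fell from 3.26 and 2.8 to 0.284 and 0.293 CPM.

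The antagonists of nodal and activin on this list differed from each other. LEFTY1 fell from 12.7 and 19.3 to 3.91 and 3.57 CPM, a log2 of -2.09 ± 0.27 (adjusted p = 5.0e-06), with 0.426 and 0.12 CPM in low Wnt. LEFTY2 fell from 6.36 and 8.14 to 4.05 and 2.75 CPM, a log2 of -1.1 ± 0.27 (adjusted p = 0.0018), with 2.25 and 2.81 CPM in low Wnt. The LEFTY genes are close copies of each other, so reads could be split between them. CER1 measured 2.0 and 2.12 CPM in hESC and 3.2 and 2.58 in low Wnt + TGFB and was not called (log2 0.48 ± 0.42, adjusted p = 0.333). Low Wnt held 0 and 0.12 CPM of CER1, and the difference from it was called (adjusted p = 2.8e-05). FST (chr5:53480434-53486474, plus strand), which binds and blocks activin, rose from 12.2 and 13.9 CPM in hESC to 305 and 291 in low Wnt + TGFB, with 68 and 78 in low Wnt. Against hESC it had the largest difference of the 17 tested members, log2 4.51 ± 0.14 (adjusted p = 3.5e-13), and over low Wnt its log2 was 2.03 ± 0.12 (adjusted p = 4.9e-09).

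Most receptors and SMADs of the pathway rose while FOXH1 fell. The type I receptor ACVR1B (ALK4) rose from 29.5 and 32.5 to 64.4 and 61.9 CPM and ACVR1C (ALK7) from 1.26 and 1.02 to 3.7 and 2.46. The type II receptor ACVR2B rose from 190.5 and 131 to 341 and 334 CPM, while ACVR2A was not called (adjusted p = 0.61). SMAD3 rose from 19.2 and 16.9 to 85.8 and 73.4 CPM (log2 2.14 ± 0.12, adjusted p = 5.4e-10), below the 148 and 138 CPM of low Wnt. SMAD4 rose by a log2 of 0.39 ± 0.095 (adjusted p = 0.0019). SMAD2 measured 76.9 and 72.9 CPM in hESC and 87.1 and 88 in low Wnt + TGFB (adjusted p = 0.0334), and this call was lost in 7 of the 10 other settings. FOXH1 fell from 109.96 and 142 to 36.9 and 47.5 CPM (log2 -1.57 ± 0.15, adjusted p = 1.3e-07) and stood at 8.22 and 8.67 in low Wnt.

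For the TGF-beta arm, 7 of 13 tested ligands, receptors and latency proteins rose and 4 fell (median log2 0.66). Of all tested genes 31.4% were higher and 31.8% lower. TGFB1, the gene of the added ligand, measured 25.2 and 32.9 CPM in hESC and 14.3 and 20.2 in low Wnt + TGFB. Its own transcript was lower, by a log2 of -0.74 ± 0.18 (adjusted p = 0.002, but 0.054 without low Wnt + TGFB replicate 1). TGFB2 rose from 1.11 and 0.848 to 4.55 and 2.69 CPM and reached 10.4 and 8.97 in low Wnt. TGFBR1, the signalling type I receptor, rose from 83.1 and 64 to 210.4 and 207 CPM (log2 1.5 ± 0.13, adjusted p = 4.2e-08). TGFBR2, which binds the ligand first, fell from 17.6 and 16.8 to 5.76 and 5.62 CPM (log2 -1.6 ± 0.16, adjusted p = 2.4e-07). The 2 signalling receptors thus moved in opposite directions. TGFBR3 (betaglycan) rose from 8.73 and 7.29 to 38.8 and 35.4 CPM but stayed below the 157 and 156 of low Wnt, log2 -2.08 ± 0.0999 (adjusted p = 5.7e-10). ENG, the other accessory receptor, fell from 8.81 and 8.99 to 1.42 and 1.99 CPM. Of the latent TGF-beta binding proteins LTBP1, LTBP2 and LTBP4 rose, LTBP3 was not called (adjusted p = 0.126), and LTBP2 (6.83 and 7.32 CPM) stayed below its level in low Wnt (27.6 and 29).

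Of 11 tested feedback genes that TGF-beta signalling switches on, 2 rose and 5 fell against hESC. Of all tested genes 31.4% were higher and 31.8% lower. The 5 falls became 3 with library totals and 3 in a fit of the 4 libraries alone. They were 3 without hESC replicate 1, 3 without hESC replicate 2, 2 without low Wnt + TGFB replicate 1 and 4 without replicate 2 of that group. Against low Wnt 5 of the 11 genes were higher and 1 lower, beside 13.7% and 12.2% of all tested genes. SMAD7, an inhibitory SMAD, measured 11.8 and 13.9 CPM in hESC, 9.81 and 16.6 in low Wnt + TGFB and 3.77 and 5.14 in low Wnt. Its libraries overlapped hESC (adjusted p = 0.878) and were above low Wnt by a log2 of 1.57 ± 0.29 (adjusted p = 0.00066). SKIL, a co-repressor of SMADs, fell from 259 and 182 to 126 and 139.9 CPM against hESC (log2 -0.73 ± 0.19, adjusted p = 0.0028, but 0.0671 without hESC replicate 1), with 25.3 and 35.1 in low Wnt. PMEPA1, which withholds SMAD2 and SMAD3 from the receptor, fell from 31.1 and 25 to 9.24 and 14.8 CPM (log2 -1.22 ± 0.22, adjusted p = 0.00014), with 2.5 and 2.27 in low Wnt. BAMBI, a pseudoreceptor, fell from 33.4 and 37.5 to 19.4 and 25.1 CPM (adjusted p = 0.0019, but 0.0561 without low Wnt + TGFB replicate 1). SMAD6, which acts mainly on BMP signalling, rose from 5.03 and 6.36 to 18.4 and 26.3 CPM, and the ubiquitin ligase SMURF1 from 58 and 60.6 to 83.4 and 82.

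Of 26 tested targets of SMAD2 and SMAD3, 11 were higher and 9 lower than in hESC (median log2 0.071), beside 31.4% higher and 31.8% lower of all tested genes. TGFBI, named for its induction by TGF-beta, measured 12.2 and 14.3 CPM in hESC and 10.8 and 10.4 in low Wnt + TGFB and was not called (adjusted p = 0.121). TIMP3 rose from 13 and 13.6 to 71.5 and 63.2 CPM but was below low Wnt (255 and 261). The fibrillar collagen gene COL5A1 rose from 32.1 and 27.6 to 140.3 and 137 CPM, also below low Wnt (220.5 and 211). ITGA5, the fibronectin receptor subunit, rose from 47.2 and 51.8 to 101 and 118 CPM.

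**Figure D2:**
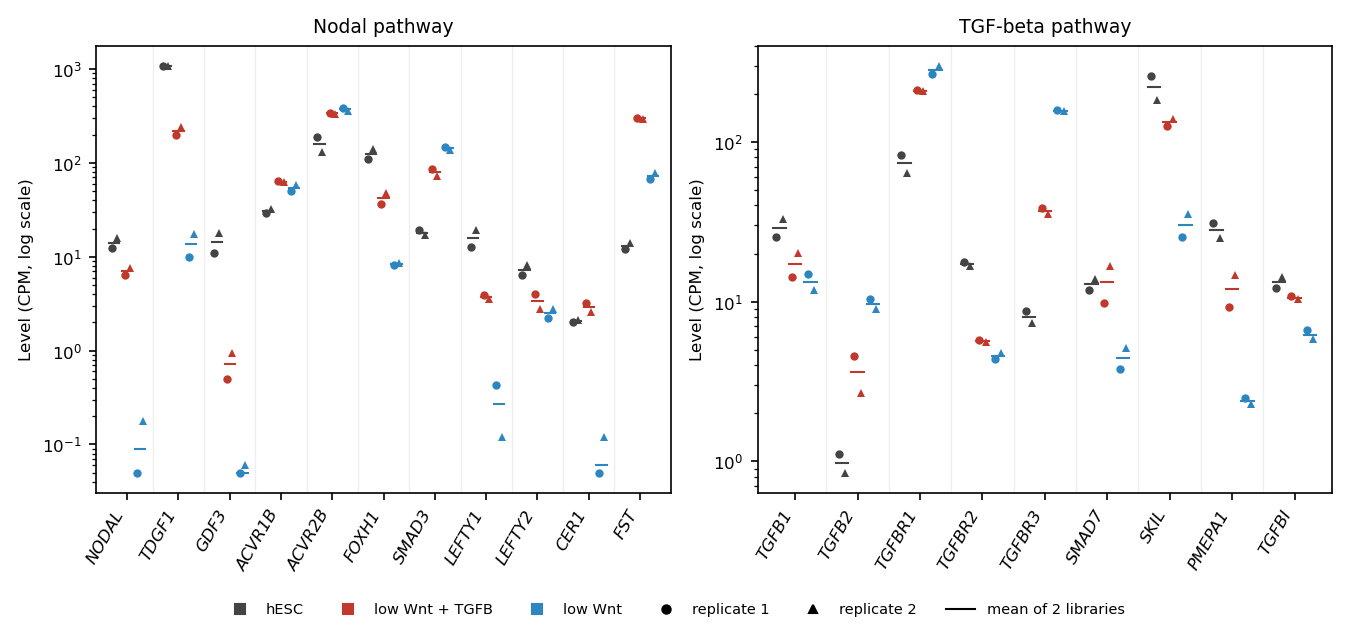
Levels of nodal pathway genes (left) and TGF-beta pathway genes (right) in TMM-scaled CPM on a log axis; colours and symbols are those of the stem cell plot, and levels under 0.05 CPM are drawn at 0.05. NODAL, TDGF1, LEFTY1 and FOXH1 lie between hESC and low Wnt, FST lies above both, and TGFBR1 and TGFBR2 lie on opposite sides of hESC.

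Most BMP targets rose. Of 13 tested genes of BMP and SMAD1/5 signalling 9 were higher than in hESC and 1 lower (median log2 2.53), and against low Wnt 9 were higher and none lower. The inhibitor of DNA binding ID4 rose from 11.5 and 11.5 to 119.9 and 167 CPM and ID2 from 31.7 and 34 to 176 and 204, and low Wnt held 59.7 and 54 of ID4 and 156 and 187 of ID2. ID1 (adjusted p = 0.584) and ID3 (adjusted p = 0.306) were not called. NOG, a BMP antagonist that BMP itself induces, rose from 0.444 and 0.424 to 6.12 and 9.31 CPM. TFAP2A, a factor of the neural plate border and of surface ectoderm, rose from 0.222 and 0.0848 to 11.9 and 19.1 CPM, with 3.84 and 3.17 in low Wnt. In all 13 of these genes, low Wnt + TGFB replicate 2 was above replicate 1. The transcript of BMP4 measured 6.88 and 10.9 CPM in hESC and 6.76 and 8.55 in low Wnt + TGFB and was not called (adjusted p = 0.379).

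Wnt targets were mostly higher on day 5, after CHIR99021 had been withdrawn at hour 72. Of 18 tested 13 rose and 2 fell (median log2 1.78). LEF1, a DNA-binding partner of beta-catenin, rose from 0.888 and 1.02 to 13.7 and 13.5 CPM, and low Wnt was at 13.9 and 12.7 (adjusted p against low Wnt = 0.896). SP5 measured 0.444 and 1.19 CPM in hESC, 29.5 and 54.4 in low Wnt + TGFB and 1.34 and 1.97 in low Wnt. It was higher than both references, by a log2 of 4.66 ± 0.31 over low Wnt (adjusted p = 1.6e-08). DKK1, a secreted Wnt antagonist, rose from 0.148 and 0.424 to 16.2 and 17.7 CPM, with 1.04 and 1.55 in low Wnt, and TNFRSF19 rose from 0.962 and 0.933 to 30.5 and 34.8. AXIN2, a general feedback target, rose from 37.1 and 35.8 to 57.3 and 76.5 CPM (log2 0.88 ± 0.14, adjusted p = 6.2e-05). CCND1 rose from 206 and 209.6 to 491 and 528 CPM. The streak factor TBXT (brachyury, listed under its older symbol T) stayed low, at 0.74 and 0.339 CPM in hESC and 0.64 and 0.293 in low Wnt + TGFB, and was not called (adjusted p = 0.646). CDX2, a posterior factor, measured 0.074 and 0.0848 CPM in hESC and 2.28 and 0.761 in low Wnt + TGFB.

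Genes that FGF and ERK signalling maintain fell more often than they rose, 7 against 3 of 13 tested (median log2 -0.64). ETV4, an ETS factor induced by FGF, fell from 217 and 255 to 25 and 32.6 CPM, with 3.47 and 4.24 in low Wnt (log2 -3.03 ± 0.16 from hESC, adjusted p = 1.5e-10). SPRY4, a feedback inhibitor, fell from 185 and 182 to 33.2 and 44.1 CPM, with 5.05 and 4.78 in low Wnt (log2 -2.24 ± 0.19, adjusted p = 4.3e-08). ETV5 fell from 49.1 and 47.8 to 19.1 and 19.9 CPM and SPRY1 from 29.97 and 27.6 to 9.74 and 13.2. DUSP6, the ERK phosphatase, fell from 169.6 and 182 to 91.5 and 133 CPM (adjusted p = 0.0013, but 0.0502 without low Wnt + TGFB replicate 1). Against low Wnt 8 of the 13 genes were higher and 1 lower.

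Among FGF ligands, FGF2, which stem cells make and need, fell from 277 and 194 to 124 and 134 CPM (log2 -0.87 ± 0.13, adjusted p = 3.4e-05). FGF19, an endocrine ligand, fell from 22.3 and 29.3 to 1.21 and 2.63 CPM (log2 -3.71 ± 0.33 and -4.38 without low Wnt + TGFB replicate 2). FGF13 fell from 54.5 and 57.6 to 20.8 and 23 CPM and FGF12 from 14.3 and 12.7 to 5.76 and 5.97. FGF8 measured 2.96 and 3.48 CPM in hESC and 1.56 and 1.46 in low Wnt + TGFB (adjusted p = 0.0302), and its call was lost when any single library of the 4 was left out. FGF9 rose from 0 and 0.17 to 2.13 and 1.7 CPM. FGF4 (adjusted p = 0.113) and FGF5 (adjusted p = 0.1) were near the detection limit and not called. The receptors changed in both directions: FGFR3 rose from 34.2 and 38.4 to 273 and 308 CPM, FGFR2 from 114 and 99.5 to 276 and 277 and FGFR1 from 467 and 469.96 to 821 and 844, while FGFR4 fell from 128 and 176 to 57.6 and 81. FGFR3 stayed below its level in low Wnt, 1038 and 1062 CPM (log2 -1.85 ± 0.11, adjusted p = 6.2e-09).

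The retinoic acid pathway held some of the largest rises, with 11 of 19 tested genes higher and 6 lower. Of all tested genes 31.4% were higher and 31.8% lower. CYP26C1 (chr10:93061264-93068697) measured 0.074 and 0.424 CPM in hESC and 272 and 323 in low Wnt + TGFB, with 422 and 382 in low Wnt. CYP26A1, the best known of these retinoic acid hydroxylases, rose from 4.88 and 8.23 to 175 and 181 CPM, with 151 and 137 in low Wnt (log2 4.78 ± 0.24, adjusted p = 1.3e-10). Both degrade retinoic acid. The receptor RARB rose from 0.222 and 0.254 to 30.4 and 24.1 CPM but stayed below low Wnt (83.9 and 83.2). MEIS2, a homeodomain partner of HOX proteins, rose from 0.37 and 0.509 to 113 and 90.4 CPM and MEIS1 from 0.592 and 0.339 to 10.7 and 9.37, both below low Wnt (251 and 240.2 for MEIS2, 28.4 and 28.3 for MEIS1). The binding protein CRABP1 rose from 209 and 267 to 403 and 374 CPM and CRABP2 from 90.2 and 109 to 292 and 269. Of the enzymes that make retinoic acid, ALDH1A3 fell from 10.7 and 9.92 to 5.62 and 4.45 CPM. ALDH1A1 measured 2.0 and 1.19 CPM in hESC and 0.782 and 1.58 in low Wnt + TGFB, ALDH1A2 measured 0.148 and 0.17 in hESC and 0.142 and 0.176 in low Wnt + TGFB, and neither was called (adjusted p = 0.519 for ALDH1A1 and 0.986 for ALDH1A2). DHRS3, which turns retinaldehyde back into retinol and so opposes synthesis, fell from 22.3 and 26.7 to 7.4 and 8.14 CPM.

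In the Notch pathway 9 of 18 tested genes rose and 3 fell, while against low Wnt 3 were higher and 9 lower. JAG1, a ligand, rose from 43.7 and 42 to 133 and 95.8 CPM and stayed below low Wnt (325 and 271). HES4, a target repressor, rose from 0.518 and 0.848 to 12.8 and 19 CPM, below low Wnt at 82.6 and 43. HEY2 fell from 20.6 and 26 to 2.7 and 1.93 CPM (log2 -3.34 ± 0.197, adjusted p = 6.6e-10), and the divergent ligand DLL3 fell from 17.5 and 18.2 to 6.54 and 7.32.

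The epithelial program of stem cells was reduced and not lost. Of 22 tested epithelial genes 17 fell, 5 were not called and none rose (median log2 -1.75), and against low Wnt 18 were higher and none lower. CDH1 (chr16:68737292-68835541, plus strand), the E-cadherin that joins epithelial cells, measured 352 and 328 CPM in hESC, 109.7 and 142 in low Wnt + TGFB and 10.3 and 12.6 in low Wnt. The groups did not overlap, and the log2 differences were -1.43 ± 0.13 from hESC (adjusted p = 1.3e-07) and 3.46 ± 0.16 from low Wnt (adjusted p = 4.3e-10). EPCAM, another adhesion molecule, fell from 300.2 and 266 to 109 and 144 CPM, with 11.3 and 14.4 in low Wnt. The tight junction gene CLDN6 fell from 891 and 1212 to 300.3 and 347 CPM, with 85.7 and 94.9 in low Wnt. Its relative CLDN7 fell from 139 and 171 to 24.5 and 33 CPM, with 1.83 and 1.67 in low Wnt. ST14, a membrane protease, fell from 58.2 and 83.8 to 5.69 and 9.01 CPM and AP1M2, an epithelial sorting adaptor, from 149 and 189 to 21.9 and 29.7. Low Wnt + TGFB replicate 2 was above replicate 1 in all 22 of these genes.

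Mesenchymal genes rose beside them, 9 of 12 tested with 1 lower (median log2 1.43). CDH2, the N-cadherin of neural and mesenchymal cells, rose from 108 and 104 to 388 and 393 CPM, with 524 and 574 in low Wnt (log2 1.88 ± 0.094, adjusted p = 1.2e-10). CDH11 rose from 8.07 and 7.29 to 159 and 131 CPM, with 313 and 299 in low Wnt. ZEB2 (chr2:144384375-144520391), which represses CDH1, measured 0.222 and 0.339 CPM in hESC, 159 and 143 in low Wnt + TGFB and 262 and 274 in low Wnt. ZEB1 rose from 0.074 and 0.254 to 15.6 and 12.1 CPM, with 35.7 and 38.2 in low Wnt. Both ZEB genes were thus above hESC and below low Wnt, the latter by a log2 of -0.83 ± 0.12 for ZEB2 (adjusted p = 4.3e-05) and -1.42 ± 0.13 for ZEB1 (adjusted p = 6.8e-07). SNAI2 rose from 0.888 and 0.848 to 19.8 and 15.7 CPM and did not differ by call from low Wnt (17.8 and 18.9 CPM, adjusted p = 0.861). SNAI1 was not called (adjusted p = 0.79). VIM, an intermediate filament gene, rose from 555 and 683 to 1208 and 1191 CPM.

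**Figure D3:**
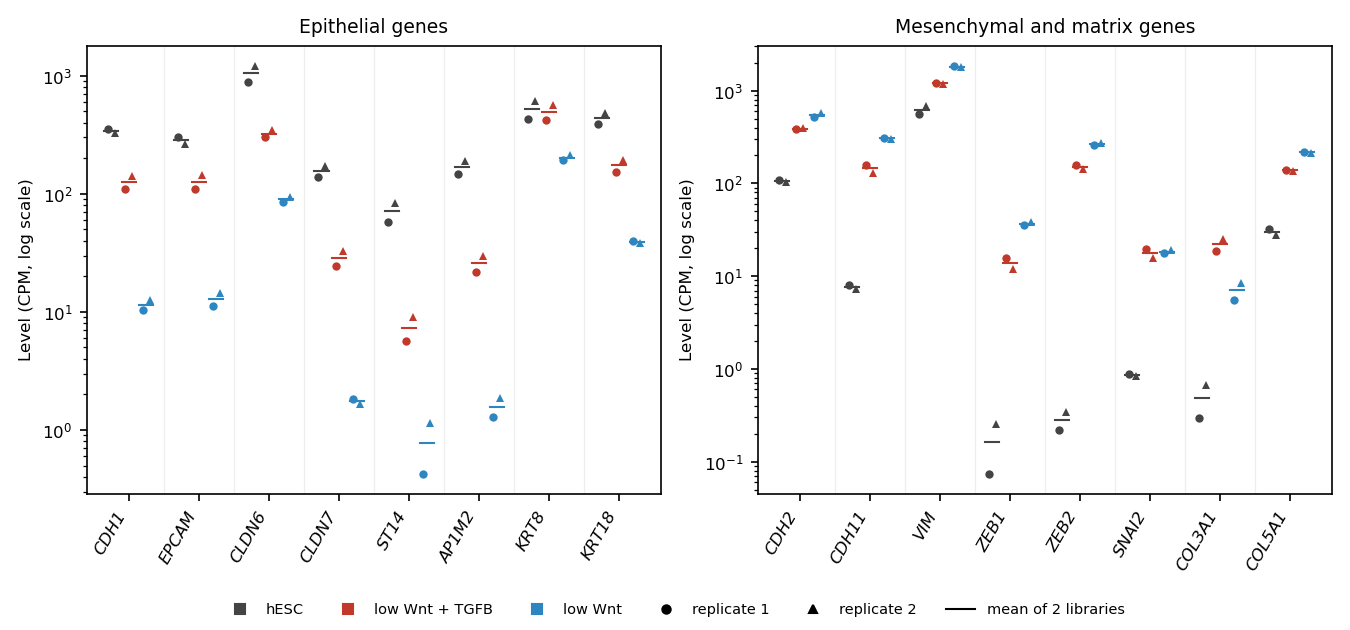
Levels of 8 epithelial genes (left) and 8 mesenchymal and matrix genes (right) in TMM-scaled CPM on a log axis, with colours and symbols as in the stem cell plot. Most epithelial genes step down from hESC through low Wnt + TGFB to low Wnt, CDH2, CDH11, VIM, ZEB1 and ZEB2 step up in the same order, and KRT8 is level with hESC.

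In the extracellular matrix list 14 of 23 tested genes rose and 7 fell (median log2 0.57), and the falls became 4 with library totals, in a fit of the 4 libraries alone, without hESC replicate 2 and without low Wnt + TGFB replicate 1. Of all tested genes 31.4% were higher and 31.8% lower. COL3A1 rose from 0.296 and 0.679 to 18.8 and 25.1 CPM, with 5.54 and 8.49 in low Wnt. The laminin chain LAMB1 rose from 90.5 and 89.1 to 368 and 366 CPM, with 223 and 219.7 in low Wnt, and the fibrillin FBN2 from 42.9 and 31 to 169 and 209, with 93.6 and 98. All 3 were higher than in both references. FN1, the fibronectin gene and a gene picked after its values were seen, measured 309 and 257 CPM in hESC, 491 and 758 in low Wnt + TGFB and 192 and 198 in low Wnt. COL1A1 measured 240.3 and 237 CPM in hESC and 194 and 211 in low Wnt + TGFB (log2 -0.24 ± 0.095, adjusted p = 0.0384), and this call was lost in 7 of the 10 other settings, with adjusted p from 0.0643 to 0.568.

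Of 14 genes that YAP and TEAD factors drive, 10 rose and 1 fell (median log2 0.62). ANKRD1 rose from 0.37 and 0.424 to 63.8 and 90.1 CPM, with 18.8 and 22.8 in low Wnt. TEAD1 rose from 94.3 and 75.5 to 403 and 367 CPM (log2 2.18 ± 0.12, adjusted p = 3.8e-10), the LIM protein AJUBA from 89.3 and 80.2 to 208 and 234, and DLC1 from 5.85 and 6.36 to 29.9 and 39.7. Of 11 contractile genes of smooth muscle 4 were higher and 4 lower, beside 31.4% higher and 31.8% lower of all tested genes. ACTA2, the smooth muscle actin, rose from 3.11 and 3.99 to 21 and 17.1 CPM (log2 2.43 ± 0.17, adjusted p = 6.0e-09), and TPM1 rose from 567 and 648 to 1006 and 928. ACTG2 fell from 17.7 and 23.5 to 1.85 and 2.87 CPM and MYL9 from 248 and 331 to 143 and 156.

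Most neural genes were above hESC in low Wnt + TGFB and below low Wnt. Of 18 tested genes of brain and spinal cord progenitors 12 rose and 2 fell against hESC (median log2 1.99, or 1.73 with genes at 0 set to their bound), and against low Wnt 3 were higher and 12 lower. SOX1, an early neural factor, measured 0.296 and 0.424 CPM in hESC, 38.3 and 41.7 in low Wnt + TGFB and 177 and 176 in low Wnt. PAX6, which marks neuroectoderm, measured 0.37 and 0.594 CPM in hESC, 19.1 and 11.8 in low Wnt + TGFB and 54.1 and 49.97 in low Wnt. In both genes the low Wnt + TGFB libraries lay above every hESC library and below every low Wnt library, the latter by a log2 of -2.14 ± 0.14 for SOX1 (adjusted p = 1.2e-08) and -1.77 ± 0.18 for PAX6 (adjusted p = 1.7e-06). The intermediate filament gene NES rose from 387 and 397 to 1391 and 1208 CPM, with 3297 and 2809 in low Wnt, and ZNF521, an early neural factor, from 15.5 and 14.1 to 75 and 66.6, with 105 and 108.

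A few anterior neural genes, picked after their values were seen, went above low Wnt. LHX5, a forebrain and diencephalic factor, measured 0.518 and 0.763 CPM in hESC, 16.1 and 24.9 in low Wnt + TGFB and 3.17 and 3.11 in low Wnt (log2 2.71 ± 0.2998 over low Wnt, adjusted p = 6.0e-06). DMBX1, a homeodomain factor of the diencephalon and midbrain, rose from 0.37 and 0.424 to 17.3 and 15 CPM, with 1.22 and 1.61 in low Wnt and 0 to 0.183 in the other 8 libraries (log2 3.5 ± 0.31 over low Wnt, adjusted p = 2.7e-07). Both rose against hESC without overlap, as OTX2 did. WNT1 was also higher than in low Wnt, at 10.4 and 9.92 CPM there (log2 1.37 ± 0.23, adjusted p = 0.00027).

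Neuronal genes rose in 7 of 13 tested cases with 1 fall. The sensory factor POU4F1 rose from 0.814 and 0.509 to 8.04 and 6.5 CPM. STMN2, a neuronal tubulin-binding protein, rose from 6.88 and 6.87 to 113 and 73.5 CPM. TUBB3, a tubulin that stem cells also express, fell from 358 and 527 to 172 and 179 CPM (log2 -1.33 ± 0.15, adjusted p = 1.2e-06).

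For the neural plate border and crest 13 of 22 tested genes rose and 4 fell (median log2 1.49), and against low Wnt 10 were higher and 2 lower. PAX3, a border factor, measured 0 and 0.17 CPM in hESC, 16.4 and 15.5 in low Wnt + TGFB and 8.58 and 6.63 in low Wnt. SOX5 rose from 0.444 and 0.679 to 16 and 15.8 CPM, and SNAI2 and TFAP2A are given above. SOX10, which marks migrating crest, was not called: it measured 4.74 and 6.53 CPM in hESC and 6.19 and 6.5 in low Wnt + TGFB (adjusted p = 0.594). The 4 that fell were FOXD3, ETS1, ERBB3 and B3GAT1, all of which hESC also transcribe. ETS1, for example, fell from 92.3 and 73.5 to 31.7 and 34.3 CPM, and ERBB3, a neuregulin receptor, from 87.6 and 76.5 to 40.5 and 44.1.

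HOX genes were at or near 0 in hESC. Of 29 tested, 17 were called higher, beside 31.4% of all tested genes, and none lower. A gene at 0 in hESC could not be called lower. Some calls rested on few counts: HOXB7 had 4, HOXA4 5 and HOXC9 5 in low Wnt + TGFB, against 0 in hESC. With hESC set at 3 counts over the group, their bounds were at least 1.15-, 1.45- and 1.39-fold. The count of 17 became 13 with DESeq2 and 6 in a fit of the 4 libraries alone, where the rest failed the low-count filter. It was 11 without hESC replicate 1, 14 without hESC replicate 2, 10 without low Wnt + TGFB replicate 1 and 19 without replicate 2 of that group. HOXB2 measured 0 and 0.17 CPM in hESC and 1.99 and 2.63 in low Wnt + TGFB, with 5.84 and 5.56 in low Wnt. Against low Wnt 3 HOX genes were called lower, HOXA2 and HOXB2 among them, and none was called higher. HOXC4 was at 0 in hESC and at 2.63 and 0.937 CPM, at least 15-fold higher. HOXB9, a more posterior gene picked after its values were seen, was at 0 in hESC and at 11.9 and 1.64 CPM, at least 57.3-fold higher, and the replicates differed widely. HOXB1 was not called (adjusted p = 0.472). Low Wnt + TGFB replicate 1 was above replicate 2 in 26 of the 29 HOX genes, beside 51.4% of all tested genes. In the wider list of hindbrain and COUP-TF genes 9 of 12 rose and 1 fell, and NR2F1 rose from 0.296 and 0 to 35.8 and 33.8 CPM, below the 107 and 100.2 of low Wnt.

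Most endoderm genes were above both references. Of 13 tested, 10 rose, 1 fell and 2 were not called against hESC (median log2 4.12), and all 13 were higher than in low Wnt (median log2 4.95). The 10 rises were 9 in a fit of the 4 libraries alone, where the other gene failed the low-count filter. SOX17, a factor that specifies definitive endoderm, measured 0.074 and 0.0848 CPM in hESC, 14.6 and 32.4 in low Wnt + TGFB and 0.183 and 0.538 in low Wnt, and 0 to 0.127 in the other 8 libraries. It had 2 counts in hESC, and its level was 298 times higher (exact counting interval 85.2 to 2554, 95%). FOXA2, a pioneer factor of endoderm and floor plate, rose from 0.074 and 0.254 to 12.7 and 25.6 CPM, with 0.974 and 0.837 in low Wnt. The chemokine receptor CXCR4 rose from 1.41 and 2.29 to 26.7 and 36.8 CPM (log2 4.12 ± 0.23, adjusted p = 2.8e-10), with 15.6 and 16.3 in low Wnt. PRDM1, a repressor active in endoderm and germ cells, rose from 0.666 and 0.933 to 10.03 and 12.7 CPM, with 3.77 and 3.65 in low Wnt.

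Other members of the list, picked after their values were seen, followed. GATA4 rose from 0.592 and 1.1 to 7.89 and 19.1 CPM, with 0.183 and 0.359 in low Wnt, and GATA6 from 0.148 and 0.17 to 6.33 and 14, with 0.426 and 0.359. HNF4A, a factor of liver and gut endoderm, had 1 count in hESC and 3.98 and 7.49 CPM in low Wnt + TGFB, and the apolipoprotein gene APOA1 rose from 0.37 and 0.254 to 6.54 and 20.5 CPM. AFP was the single fall, from 7.33 and 7.12 to 0.284 and 0.234 CPM, and CER1 and HHEX were not called (HHEX adjusted p = 0.0997). The low Wnt + TGFB libraries differed from each other in this group: replicate 2 was 2.21 times replicate 1 for SOX17, 2.01 for FOXA2, 2.42 for GATA4, 2.22 for GATA6 and 3.13 for APOA1. Replicate 2 was the higher in 11 of the 13 genes, and what part this difference between the libraries has in the result was not tested. Of 14181 genes with at least 1 CPM, 4.80% were at least 1.5 times higher in replicate 2 and 2.66% in replicate 1. Without low Wnt + TGFB replicate 2 the log2 over hESC was 7.42 for SOX17, where it was 8.08 with all libraries.

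**Figure D4:**
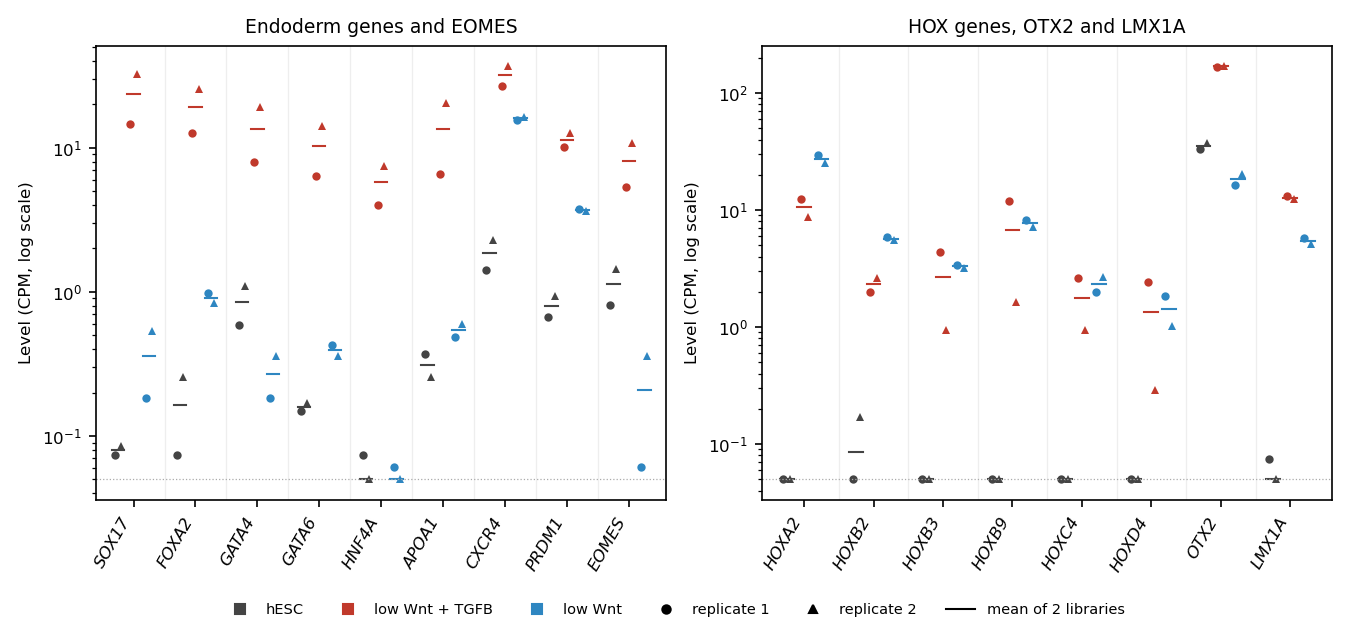
Levels of 9 genes of endoderm and early streak (left) and 8 HOX and anterior genes (right) in TMM-scaled CPM on a log axis, with colours and symbols as in the stem cell plot and levels under 0.05 CPM drawn at 0.05. The red points of SOX17, FOXA2, GATA4, GATA6, HNF4A and APOA1 stand above grey and blue with replicate 2 (triangle) on top, while for HOXB3, HOXB9 and HOXD4 replicate 1 (circle) is on top.

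Mesoderm and streak genes rose in 6 of 13 tested cases with 1 fall, mostly at low levels. The 6 rises were 4 in a fit of the 4 libraries alone, where the rest failed the low-count filter, and 7 with library totals. Beside this count and the other list counts of this paragraph stand 31.4% higher and 31.8% lower of all tested genes. EOMES, a T-box factor of streak and endoderm, measured 0.814 and 1.44 CPM in hESC, 5.33 and 10.8 in low Wnt + TGFB and 0.0609 and 0.359 in low Wnt (log2 2.85 ± 0.497 over hESC, adjusted p = 0.00013). Replicate 2 was again the higher of the pair. GSC, an organizer factor, rose from 0.296 and 0.254 to 1.49 and 1.46 CPM (adjusted p = 0.0019, but 0.0574 with DESeq2). PDGFRA rose from 3.48 and 4.33 to 15.2 and 14.3 CPM, and the VEGF receptor KDR, which stem cells express, fell from 188 and 166 to 39.5 and 31.6 (log2 -2.32 ± 0.13, adjusted p = 3.1e-10). Among amnion and trophoblast genes 5 of 11 rose and 2 fell, and the rises were 4 with DESeq2 and 7 with library totals. GATA3 rose from 0.74 and 0.763 to 5.97 and 13.7 CPM (log2 3.7 ± 0.51 and 3.01 without low Wnt + TGFB replicate 2), and GABRP fell from 5.4 and 4.24 to 0.498 and 0.819. Among placode and surface ectoderm genes 3 of 8 rose and 1 fell, with DLX3 at 1.28 and 1.7 CPM from 0.074 and 0.17 and GRHL3 at 5.48 and 5.56 from 1.7 and 2.71. Of 9 tested endothelial and blood genes 4 rose and 2 fell: VWF rose from 1.33 and 1.27 to 17.3 and 23.3 CPM and TEK from 94.9 and 84.5 to 156 and 138, while TIE1 fell from 5.4 and 6.45 to 1.35 and 1.58 and ERG from 4.14 and 3.14 to 0.427 and 0.351.

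Genes of growth and metabolism were lower than in hESC in most lists. Of 20 genes that the stress factor ATF4 drives for amino acid supply 16 fell and 1 rose (median log2 -1.24). ASNS, asparagine synthetase, fell from 202 and 199 to 54.4 and 53.5 CPM (log2 -1.89 ± 0.099, adjusted p = 1.9e-10). SHMT2, of mitochondrial folate metabolism, fell from 314 and 399.7 to 85.6 and 85.9 CPM, PHGDH, which opens serine synthesis, from 872 and 1049 to 308 and 304, and the transporter chain SLC3A2 from 494 and 639 to 126 and 151. The 1 rise was the cystine transporter SLC7A11, from 47.7 and 30.6 to 58.2 and 62.5 CPM (adjusted p = 0.0076, but 0.104 without hESC replicate 2).

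Of 20 genes of cholesterol synthesis and uptake 18 fell and none rose (median log2 -0.93). DHCR7, a sterol reductase, fell from 148 and 187 to 45.3 and 54.8 CPM (log2 -1.74 ± 0.14, adjusted p = 1.9e-08), and FDPS, which makes farnesyl diphosphate, from 279 and 304 to 134 and 126. Of 18 glycolysis genes 11 fell and 2 rose (median log2 -0.64), or 5 rose with library totals. The glucose transporter SLC2A1 fell from 466 and 557 to 125 and 169 CPM, below the 293 and 347 of low Wnt (log2 -1.8 ± 0.14 from hESC, adjusted p = 2.1e-08). The hexokinase HK1 fell from 566 and 588 to 151 and 167 CPM and HK2 from 180.3 and 158 to 49.4 and 52.6, and PFKP, a phosphofructokinase, from 209 and 255 to 77.1 and 93.

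Of 20 ribosome biogenesis genes 18 fell and none rose (median log2 -0.70), while against low Wnt 14 were higher and none lower. The falls against hESC were 14 with library totals and 14 in a fit of the 4 libraries alone. Of the nucleolar factors that process ribosomal RNA, BOP1 fell from 174 and 247 to 54 and 68.7 CPM and PES1, which acts in a complex with it, from 187 and 243 to 94.8 and 105. RRP12 fell from 119.6 and 148 to 45.7 and 52.4 CPM, and MYBBP1A from 248 and 299.99 to 82.9 and 109. In the cell cycle list 17 of 29 fell and 6 rose, by a median log2 of -0.39. With library totals 14 fell and 9 rose. The replication helicase subunit MCM5 fell from 360.1 and 484 to 153 and 175 CPM (log2 -1.36 ± 0.12, adjusted p = 9.2e-08). The D cyclins parted: CCND3 fell from 38.1 and 52.9 to 14.4 and 14.2 CPM, while CCND2 rose from 183 and 164 to 371 and 349 and CCND1 rose as given above.

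Among 9 tested DNA methylation enzymes 3 rose and 3 fell, beside 31.4% higher and 31.8% lower of all tested genes. The demethylating dioxygenases rose: TET2 from 2.81 and 3.22 to 14.7 and 13.3 CPM (log2 2.21 ± 0.21, adjusted p = 1.3e-07), TET3 from 38.7 and 34.5 to 65.1 and 67.1 and TET1 from 138 and 90.5 to 197 and 167. The falls were DNMT3B, given above, the cytidine deaminase APOBEC3B, from 5.25 and 7.29 to 1.14 and 1.7 CPM, and DNMT1 (log2 -0.24 ± 0.084, adjusted p = 0.019), whose call was lost in 7 of the 10 other settings. UHRF1 (adjusted p = 0.155) and DNMT3A (adjusted p = 0.0838) were not called.

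In the IGF axis and its oncofetal RNA-binding proteins 6 of 15 rose and 3 fell, or 9 rose with library totals. Of all tested genes 31.4% were higher and 31.8% lower. IGFBP5, a secreted IGF-binding protein, measured 7.92 and 6.79 CPM in hESC, 215 and 163 in low Wnt + TGFB and 1413 and 1401 in low Wnt. Its log2 difference was 4.68 ± 0.16 from hESC (adjusted p = 8.0e-13) and -2.9 ± 0.13 from low Wnt (adjusted p = 4.1e-10). IGF2 was at 0 in hESC, 0.427 and 0.585 CPM in low Wnt + TGFB and 11.6 and 10.2 in low Wnt. The receptor IGF1R rose by a log2 of 0.69 ± 0.11 (adjusted p = 6.4e-05), and IGF2BP1 and IGF2BP2 by 0.42 ± 0.11 and 0.51 ± 0.08997. The high mobility group genes parted, HMGA2 rising from 245 and 225 to 499.8 and 439.99 CPM and HMGA1 falling from 3347 and 4278 to 1619 and 1846. IGFBP4 fell from 173 and 215 to 61 and 75.3 CPM and IGFBP6 from 10.1 and 18.2 to 3.56 and 3.98. Of 16 targets of p53, 6 were higher and 6 lower, beside 31.4% higher and 31.8% lower of all tested genes. ZMAT3 rose from 27 and 20.1 to 64.6 and 59.4 CPM and FAS from 4.66 and 4.33 to 11.2 and 8.49, while BAX fell from 187 and 227 to 107 and 117 and SESN2 from 53.3 and 63.1 to 28.2 and 29.9.

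**Figure D5:**
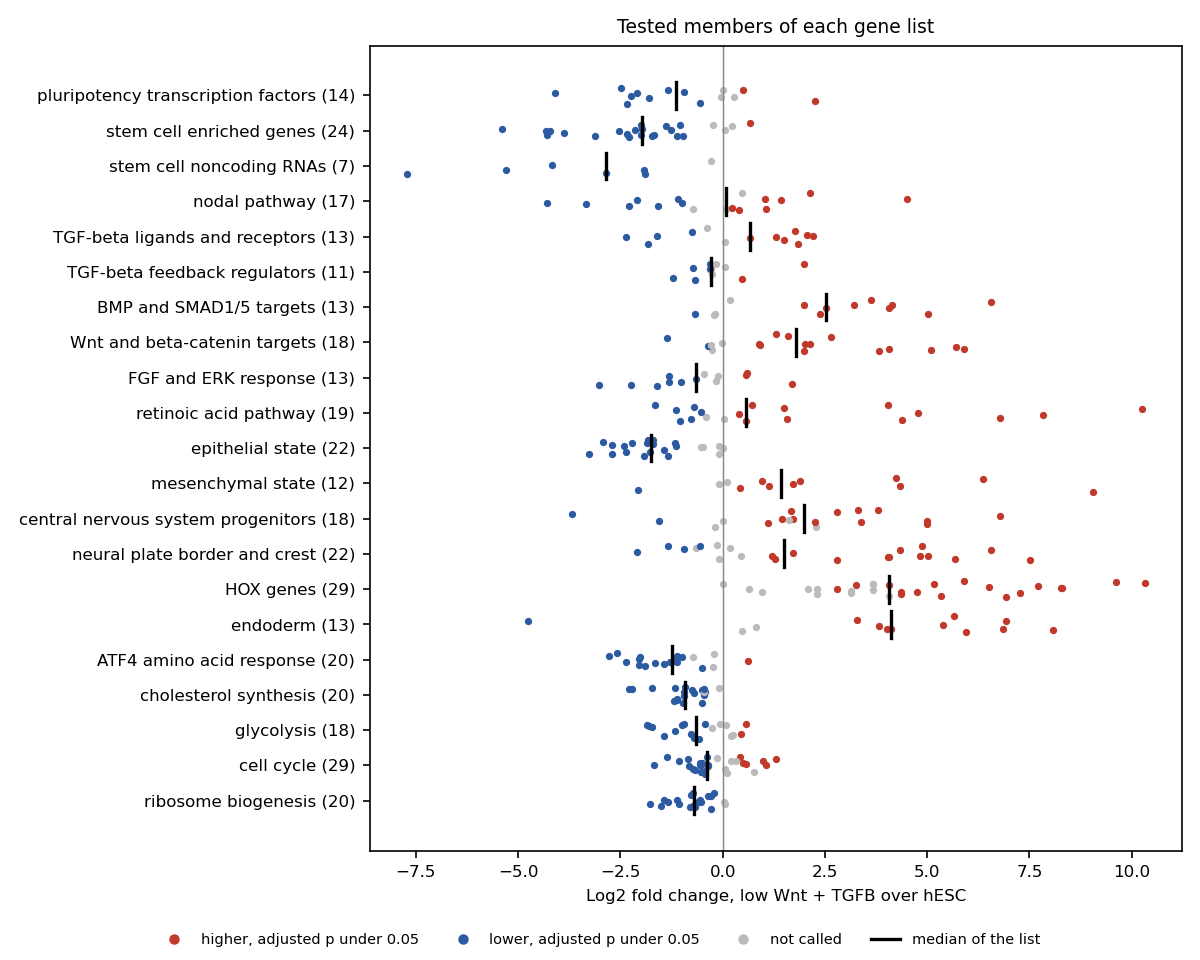
Log2 fold change of low Wnt + TGFB over hESC for every tested member of 21 gene lists, with red for called higher, blue for called lower, grey for not called and a bar at each list's median. The medians run from below 0 for stem cell, epithelial and ATF4 genes to above 4 for endoderm and HOX genes (the HOX median is 4.07, or 2.73 with genes at 0 set to their bound), and most lists hold members on both sides of 0.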

How the data were processed

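RNA from WA01 cells was selected for poly(A) and made into strand-specific libraries, per the labels' protocols. The authors deposited 1 table of raw read counts per gene for all 14 samples. Per the submitters' processing notes the tools were bcl2fastq, HISAT2 2.2.0, SAMtools 1.10 and featureCounts 2.0.0 with hg38. Per the file headers, read pairs were counted once over exons on the reverse strand, and reads with several alignments were left out, so genes with near-identical copies (POU5F1, NANOG, LEFTY1, LEFTY2, HMGA1) lose reads.

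From these counts, all 14 libraries entered 1 edgeR 4.0.16 quasi-likelihood fit in R 4.3.3 (limma 3.58.1) with TMM scaling, filterByExpr on low counts and Benjamini-Hochberg adjustment over 16149 genes; it left 7 residual degrees of freedom. The 37 gene lists hold 598 symbols, of which 593 were in the table and 547 were tested. The comparison and the lists were chosen with earlier results of these data known. Named genes are the 12 largest rises and 12 largest falls among called genes with at least 10 CPM and no overlap, up to 4 members of each list with the smallest p, small families in full and a fixed panel. Some genes that these rules pick are not reported here, and others were chosen after their values were seen. The alternatives tried were RLE scaling, DESeq2 1.42.0, library totals as the only scaling, all genes without the filter, a fit of the compared groups alone, a replicate block, glmTreat at a log2 of 1, and leaving out each library in turn. No replicate pair was a copy: their counts differed beyond sampling noise, with a chi-square of 5.26 to 14.1 for each degree of freedom.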

Additional observations from a re-analysis of the deposited data

How the results depend on the processing

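In the comparison with hESC, 10199 genes were called, against 9519 by DESeq2, 10205 with RLE scaling, 10256 with library totals, 10379 without a filter, 9061 in a fit of the 4 libraries alone and 8601 to 9692 when 1 library was left out. Asking for a difference above a log2 of 1 (glmTreat) left 2641. Against low Wnt, 4196 calls became 2342 to 3564 when 1 library was left out. Without the filter, the mean correlation of low Wnt + TGFB with hESC was 0.95 in place of 0.902, and with low Wnt 0.978 in place of 0.96. Groups share replicate numbers that the labels do not tie to a shared batch or day. Same-numbered libraries deviated together with correlations of -0.116 to 0.206 over 21 pairs of groups, 5 of them over 0.1, with 0.135 for low Wnt + TGFB and hESC. A fit with the replicate number as a block called 10407 genes against hESC (5168 higher, 5239 lower) and 4561 against low Wnt. The list members and genes picked by the naming rules that were tested numbered 559, not all of them named in the text. None of the 559 reversed in 10 other settings (glmTreat not among them), though the fit of the 4 libraries alone gave values for 509 only. Of 431 called genes, 350 had a value in all 10 and kept call and direction. The cause of the changes was not tested. Depth limits genes under about 1 CPM, whose folds rest on a few counts.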
